A study of Mus musculus with 6 samples.

Results

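Spots rich in genes of the outermost cortex, where layer 1 and the glia limitans meet the meninges, were followed across age in coronal brain sections of the mouse. They were chosen by their transcripts, and their place at the pial surface was not checked. Spots with at least 500 UMIs (unique molecular identifiers, each a captured transcript) were scored by the sum of log1p(UMIs x 10000 / spot total) over chosen genes. In each section the 35 spots highest for Col1a2, Slc6a13, Fmod and Dcn, genes of meningeal fibroblasts and barrier cells, were dropped first. The 60 highest of the rest for Reln, Ndnf and Myoc were the members, so that they were chosen by the measured levels of these 7 genes, which gave 360 of 16741 spots in all. The members made up between 2.02% and 2.33% of the spots of a section. The spots that were neither members nor dropped meninges spots, 16171 in all, are called other spots.

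Layer 1 is the cell-poor outer sheet of the cortex, made mostly of the apical tufts of deeper pyramidal cells, long-range axons and a sparse set of inhibitory neurons. Reln encodes reelin, a secreted glycoprotein that acts through the receptors Vldlr and Lrp8 and the adaptor Dab1, and which Cajal-Retzius cells make in the developing brain and inhibitory neurons in the adult. Ndnf encodes a secreted factor that marks the neurogliaform cells of layer 1. Above them lies the glia limitans, a sheet of astrocyte endfeet on a basal lamina under the pia, whose astrocytes are rich in Gfap and Aqp4 and of which Myoc, encoding myocilin, is a known marker.

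The animals were male C57BL/6J mice, the common inbred strain, with no genotype or treatment given. Young mice were 6 months old, middle mice 18 months and old mice 21 months, with 2 sections per age, taken as 2 animals since the labels give 2 males per age. Frozen brains were cut coronally and profiled on Visium slides, on which each barcoded spot collects the transcripts of a small area of tissue in which cells of various types can lie. Only middle 2 and old 2 were on the second slide, and the other sections shared the first, which ties slide partly to age. The number after an age names the section.

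The summed UMIs of the 60 member spots ran from 963447 (old 2) to 1676912 (young 1), so that 1 UMI was worth between 0.596 and 1.04 CPM (counts with the total of the member spots set to 1000000). The median UMIs per member spot were 26800 and 19680 in young, 22172 and 19958 in middle and 17977 and 15426 in old sections. The group means were 23240 ± 5035 (SD, n = 2) in young, 21065 ± 1566 in middle and 16702 ± 1804 in old. Both old sections lay lowest, but an exact permutation test over the 6 sections gave p = 0.333, two-sided, where the smallest p this design allows is 0.0667. The other spots were deeper in every section, with medians between 20671 and 30316 UMIs.

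The score chose the members, so the levels of its 3 genes are a description and were not tested. The last member and the first spot left out had almost the same score, 1.632 and 1.630 in young 1 and 1.660 and 1.632 in middle 2, the widest gap of the 6 sections. Of the 60 members of a section, 47 to 53 held at least 1 UMI of Reln, 35 to 43 of Ndnf and 42 to 54 of Myoc. All 3 genes were detected in 20 to 29 spots, and 6 to 18 spots had no Myoc. Among other spots 28.3% to 40.2% held Reln, 8.51% to 10.8% Ndnf and 6.42% to 9.77% Myoc. Reln stood at 162 and 167 CPM in young, 130 and 154 in middle and 177 and 158 in old member sums. Ndnf stood at 47.1 and 68.1 CPM in young, 75.5 and 83.1 in middle and 106 and 77.9 in old. Myoc stood at 261 and 258 CPM in young, 160 and 267 in middle and 174 and 376 in old. Across the 3 genes the ages overlapped for Reln and Myoc. For Ndnf, which itself chose the spots, both old sections lay above both young ones. The same held for 17.5% of all genes tested in old against young. The barcodes that mark grid positions recurred between slides, with 1920 present in all 6 sections, and 23 of the 335 different member barcodes were members in more than 1 section.

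The marker lists showed a surface mix rather than a pure layer. Without Myoc, the 13 other genes of the glia limitans list summed to 1.96 to 3.65 times their level in other spots, and 9 of the 13 were higher in every section. The 12 leptomeningeal genes that had not been used to drop spots summed to 6.06 to 8.91 times, although the meninges spots had been taken out; in those dropped spots the same genes stood at 29.7 to 43.3 times. All 12 were above other spots in each of the 6 sections. The 9 border macrophage genes stood at 2.23 to 4.38 times, the 10 mural cell genes at 1.90 to 2.92 times and the 12 endothelial genes at 1.51 to 1.79 times.

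Neuronal lists moved less. Without Reln and Ndnf, the 15 other layer 1 interneuron genes summed to 0.874 to 1.37 times other spots, and 3 of them, Kit, Cxcl14 and Id2, were higher in every section. Kit, a receptor tyrosine kinase of neurogliaform and other interneurons that the score did not use, had a mean of 50.3 ± 15.6 CPM (SD, n = 6) against 16.3 in other spots and 30.3 in meninges spots. Kit, Reln and Ndnf were the 3 genes of the 25 described next that lay above the meninges spots in each section. The 7 genes of the Cajal-Retzius list stood at 0.598 to 0.920 times, and none of them was higher than in other spots in every section. Upper layer genes stood at 1.10 to 1.46 times, and deep layer genes at 0.301 to 0.536 times other spots.

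Markers of other regions stood high in some sections. In young 1 the 8 ependymal genes stood at 3.30 times other spots, against 0.729 to 1.16 times in the other sections. The hypothalamus list stood at 2.17 times in young 1 and 1.18 times in middle 1, against 0.249 to 0.541 times in the rest. Avp, the vasopressin gene, had 1113 UMIs in the member spots of young 1, 893 of them in 1 spot, and 1116 in middle 1, 523 of them in 1 spot. Member spots with more Slc17a7 (the cortical glutamate transporter) than Slc17a6 (that of thalamus and hypothalamus) numbered 46 and 45 in young, 43 and 47 in middle and 57 and 49 in old sections. The median meningeal score of members was 1.35 in old 2 against 0.628 to 0.950 in the other sections.

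**Figure D1:**
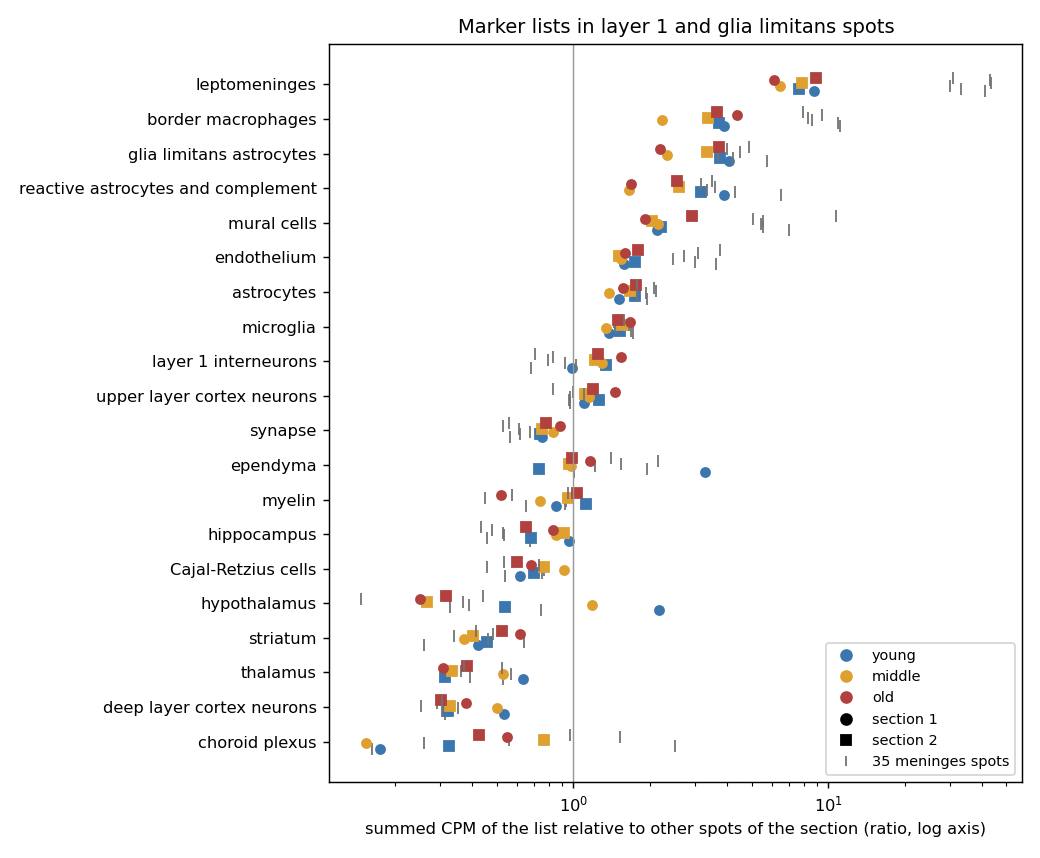
Summed CPM of each marker list in the member spots divided by that in other spots of the same section, on a log axis, for 20 lists, the genes that chose or dropped spots included, and 6 sections (colour for age, circle for section 1, square for section 2, vertical ticks for the 35 dropped meninges spots). Leptomeningeal genes lie at 6.10 to 8.96 times other spots, far under the meninges spots, and young 1 stands apart for ependymal and hypothalamic genes.

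Of 3328 genes with a mean of at least 50 CPM in member sums, 25 were at least 2 times the level of other spots in each of the 6 sections. Higher still in the meninges spots of each section were 16 of the 25. The 25 include Myoc, Ndnf and Reln, whose high level follows from their use in choosing the spots. Myoc led with 249 ± 77.7 CPM (SD, n = 6) against 4.61 in other spots, followed by Ndnf with 76.4 ± 19.4 against 4.81. Ptgds, prostaglandin D synthase of the arachnoid and of oligodendrocytes, had 5953 ± 1636 CPM against 741 and reached 28643 in meninges spots. Mgp and Igf2, secreted products of leptomeningeal cells, had 218 and 112 CPM, 7.28 and 5.79 times other spots. The meningeal genes Ptgds, Mgp and Igf2 had not been used to drop spots.

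The astrocytic genes formed the second group. Gfap, the intermediate filament of fibrous astrocytes, had 488 ± 215 CPM against 92.8 in other spots and 621 in meninges spots. Its section values were 586 and 514 in young, 227 and 500 in middle and 279 and 819 in old and did not separate by age. Vim, another intermediate filament, stood at 4.20 times other spots, Id3, a BMP target, at 4.41 times and Aqp4, the endfoot water channel, at 3.67 times. Fabp7, a lipid carrier of radial glia and surface astrocytes, had 148 CPM against 46.8 and was close to its 149 CPM in meninges spots. Genes with at least 50 CPM in other spots that stood at no more than 1/2 of that level in each section included Prkcd, Pcp4 and Vxn. Prkcd marks thalamus, and Pcp4, which deep cortical layers and thalamus express, had 496 CPM against 1596.

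The members were of more than one kind, which the score builds in, since members without Myoc entered through Reln or Ndnf. Where Myoc was detected, Gfap stood at 1.51 to 17.6 times its level in the Myoc-free members of the same section, Aqp4 at 1.62 to 7.19 times and Ptgds at 5.43 to 14.3 times. The highest Gfap and Aqp4 ratios came from young 1, where only 6 members were without Myoc. In each of the 6 sections these 3 were higher where Myoc was found. Lamp5, a marker of neurogliaform cells, was also higher in each section, at 1.02 to 2.04 times. Slc17a7 went the other way at 0.386 to 0.964 times, and so did Gad1, the GABA-synthesising enzyme, at 0.384 to 0.976 times. With a score from Reln and Ndnf alone, 4 genes passed the level of 2 times other spots in each section in place of 25. They were Kit, Mgp and the score genes Ndnf and Reln themselves. In spots of mixed tissue, more cells of a type and more RNA per cell cannot be told apart, here and in every result that follows.

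Old against young was the first age comparison, fitted with edgeR's quasi-likelihood test on the 6 member sums and adjusted by Benjamini-Hochberg over 10834 genes. It called 14 genes, which is 0.129% of those tested, 7 higher and 7 lower (0.0646% each). The genes that fell were Hspa1a, Hspa1b, Sgk1, Cebpd, Errfi1, Nfkbia and Pomc. Those that rose were Hbb-bs, Hba-a2, Hba-a1, Vip, AC149090.1, S100a8 and Ifi27l2a. The median log2 change of all genes tested was within 0.01 of 0, and 506 genes had an unadjusted p under 0.05.

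The heat shock genes gave the clearest fall. Hspa1a (chr17:34969190-34972156 on the minus strand of GRCm38) and Hspa1b (chr17:34956436-34959238, minus) encode inducible Hsp70 chaperones from neighbouring, near-identical genes, so that the authors' counting could have split reads between them. Their promoters are shown because Hspa1a and Hspa1b were called lower in both comparisons with young mice and Hspb1 in that of middle with young. The 250 bases before each start, from RefSeq (GRCm38.p6), carry in capitals every match to GAANNTTC, a palindromic core of the heat shock element, which reads the same on both strands.

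Hspa1a: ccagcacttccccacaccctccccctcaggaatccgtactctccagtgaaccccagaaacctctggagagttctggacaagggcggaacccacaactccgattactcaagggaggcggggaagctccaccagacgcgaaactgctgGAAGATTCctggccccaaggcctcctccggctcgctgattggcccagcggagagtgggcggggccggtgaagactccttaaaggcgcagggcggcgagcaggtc

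Hspa1b: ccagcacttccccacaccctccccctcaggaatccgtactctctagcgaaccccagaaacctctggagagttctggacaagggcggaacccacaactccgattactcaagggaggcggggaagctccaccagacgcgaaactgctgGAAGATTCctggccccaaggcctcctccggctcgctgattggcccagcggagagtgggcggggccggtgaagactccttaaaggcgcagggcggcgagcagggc

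Hspb1: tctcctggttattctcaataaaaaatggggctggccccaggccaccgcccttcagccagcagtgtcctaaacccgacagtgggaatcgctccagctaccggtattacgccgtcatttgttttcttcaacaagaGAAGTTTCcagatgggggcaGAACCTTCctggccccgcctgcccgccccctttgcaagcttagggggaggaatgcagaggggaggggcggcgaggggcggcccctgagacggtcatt

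The windows lie at chr17:34972157-34972406 (Hspa1a, minus), chr17:34959239-34959488 (Hspa1b, minus) and chr5:135887669-135887918 (Hspb1, plus). The Hspa1a and Hspa1b windows differ at 3 of 250 bases and hold 1 match each, and Hspb1, a small heat shock protein, holds 2. Of 16 heat shock genes, 13 had a promoter in the table, and 6 of the 13 held the motif, against 7.73% of 27025 genes. Dnajb1, which like Hspb1 was called lower in middle against young, held none in either of its windows, and these are not shown. A match describes these letters and is not a measured site.

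In member sums Hspa1a stood at 101 and 84.7 CPM in young, 14.3 and 20.0 in middle and 25.2 and 16.6 in old sections. Both old sections lay far below both young ones, with a log2 change of -2.18 (SE 0.24, adjusted p = 5.54e-05, edgeR). Hspa1b stood at 81.7 and 77.7 CPM in young, 12.8 and 8.79 in middle and 16.8 and 15.6 in old. The old values did not overlap the young ones, and the log2 change was -2.32 (SE 0.24, adjusted p = 5.23e-05, edgeR). The call for Hspa1a held in all 24 alternatives, and that for Hspa1b was lost in 1 of 24, the score from Reln and Ndnf (log2 change -1.10, adjusted p = 0.549).

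Of the 16 heat shock genes tested, all 16 had a negative log2 change in old against young, 2 of them called, with a median of -0.38. In other spots the median of the same list was -0.21. In the member spots 13 of the 16 were lower in both old than in both young sections, against 13.3% of all genes tested. Hspa8, the constitutive Hsp70, had 1901 and 1752 CPM in young and 1603 and 1758 in old and did not pass the test (log2 change -0.15, SE 0.10, adjusted p = 0.999, edgeR). Hsph1, a nucleotide exchange factor of Hsp70, had a log2 change of -0.51 (SE 0.14, adjusted p = 0.378, edgeR).

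Sgk1, Nfkbia, Cebpd and Errfi1, genes of early and glucocorticoid responses, fell as well. Sgk1, a kinase induced by glucocorticoids, stood at 123 and 211 CPM in young, 61.9 and 56.8 in middle and 56.0 and 46.7 in old sections. The young sections were well apart from each other but both above all 4 older ones, with a log2 change of -1.71 in old (SE 0.26, adjusted p = 0.0123, edgeR). Nfkbia, the inhibitor that NF-kB induces in feedback, stood at 77.5 and 57.6 CPM in young, 28.0 and 22.4 in middle and 35.5 and 21.8 in old. It fell by 1.27 on the log2 scale (SE 0.24, adjusted p = 0.0341, edgeR).

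Cebpd, a transcription factor of acute responses in astrocytes and vessels, stood at 49.5 and 35.8 CPM in young against 12.1 and 13.5 in old. Its log2 change was -1.78 (SE 0.31, adjusted p = 0.0150, edgeR), whereas in other spots it was 0.08. Errfi1, a feedback inhibitor of the EGF receptor, stood at 42.9 and 50.7 CPM in young against 14.9 and 19.7 in old, a log2 change of -1.45 (SE 0.28, adjusted p = 0.0341, edgeR). Of the 10 glucocorticoid response genes tested, 8 were negative and 2 called, with a median of -0.38, while Per1 and Fkbp5 of the same list were positive. Of 13 immediate early genes 10 were negative, 3 positive and none called (median -0.44). Lower in both old than in both young sections were 7 of them, against 13.3% of all genes tested. Higher in both old sections was 1, against 17.5%. Fos, among the 7, stood at 59.0 and 40.2 CPM in young and 30.8 and 32.2 in old. Leaving out 1 section ended some of these calls: Cebpd and Nfkbia without young 1 (adjusted p = 0.279 and 0.571), Errfi1 without young 2 (0.0906). Sgk1, Cebpd and Errfi1 were lost without old 1 (0.202, 0.202 and 0.442) and, with Nfkbia, without old 2 (adjusted p at most 0.313). With slide as a block the calls for Sgk1 and Nfkbia were lost (log2 changes -1.62 and -1.06, adjusted p = 0.261 and 0.254). With the score from Reln and Ndnf all 4 were lost, and the change was -1.003 for Sgk1, -0.62 for Nfkbia and -0.85 for Cebpd.

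**Figure D2:**
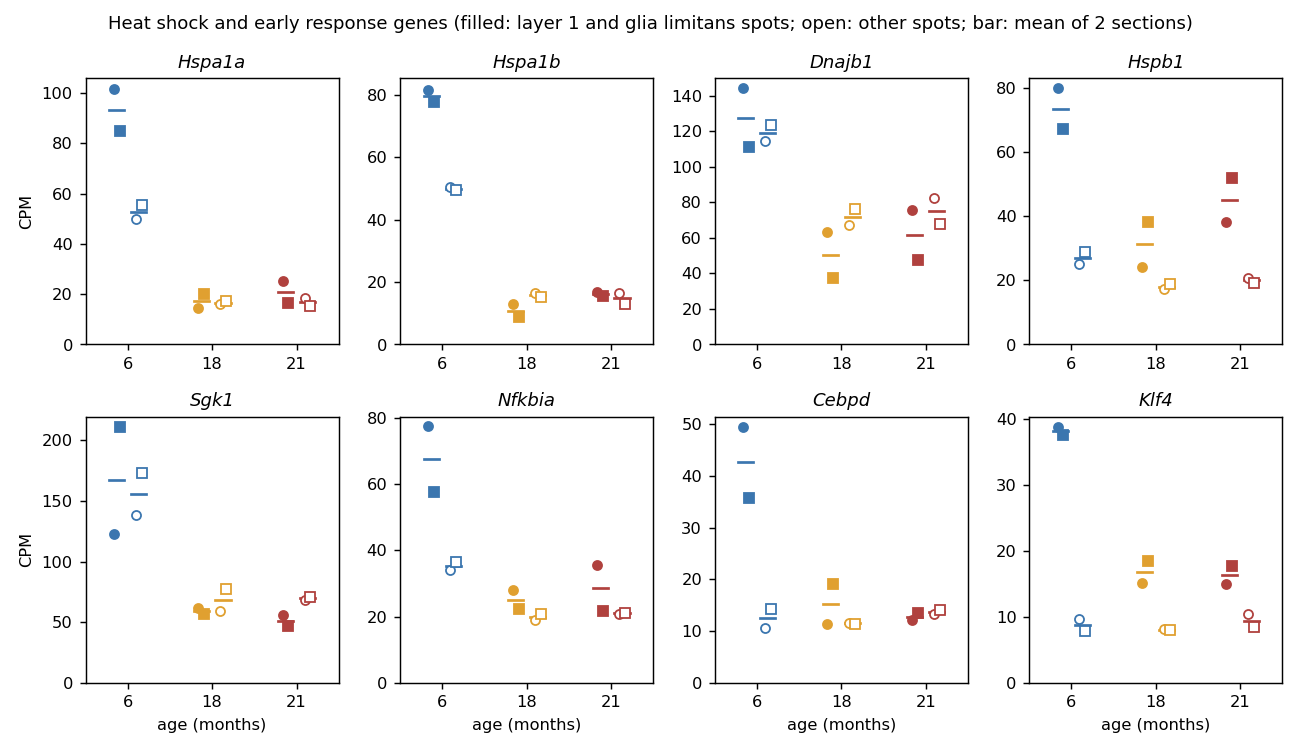
CPM of 8 heat shock and early response genes by age in months, in member spots (filled) and other spots (open) of each section (circle for section 1, square for section 2, bar for the mean of 2 sections). The 2 young member sums lie above the 4 older ones in all 8 panels, and Cebpd, Klf4 and Hspb1 stand higher in young member spots than in young other spots.

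After S100a8 (log2 change 2.87), the haemoglobin genes rose most among the genes called. Hbb-bs (chr7:103826534-103828096, minus), the adult beta chain of red blood cells, stood at 22.7 and 11.4 CPM in young, 74.0 and 45.6 in middle and 112 and 141 in old member sums. Young lay lowest and old highest without overlap, with a log2 change of 2.79 in old against young (SE 0.27, adjusted p = 5.23e-05, edgeR). Hba-a2 stood at 11.9 and 11.4 CPM in young, 54.4 and 31.2 in middle and 61.6 and 83.0 in old (log2 change 2.58, SE 0.30, adjusted p = 9.19e-05, edgeR). Hba-a1, its near-identical neighbour on chromosome 11, rose by 2.44 (SE 0.31, adjusted p = 4.07e-04, edgeR).

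The 4 haemoglobin genes had a median log2 change of 2.51 in member spots and -0.30 in other spots. In middle against young these medians were 1.65 and -1.44. The 4 genes summed to 57.2 and 35.8 CPM in young, 183 and 114 in middle and 245 and 330 in old member spots. Their summed level in member spots was 1.02 and 1.17 times other spots in young, 8.05 and 15.3 times in middle and 5.12 and 12.4 times in old sections. In the meninges spots it was 9.96 to 66.9 times. Endothelial genes summed to 570 to 730 CPM and mural genes to 328 to 568 CPM in member spots, highest for both in old 2. In old against young 8 of 12 endothelial and 8 of 9 mural genes tested were positive, with none called. Their medians were 0.20 and 0.33 in member spots, against 0.02 and 0.20 in other spots. Of the Hbb-bs UMIs, 37 of 120 in old 1 and 54 of 136 in old 2 came from 1 spot. The part of blood content in these values was not tested. The Hbb-bs call was lost with 120 members (log2 change 2.34), with 70 meninges spots dropped (2.23) and with the score from Reln and Ndnf (3.42).

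S100a8, a calcium-binding protein of neutrophils, stood at 5.96 and 0.873 CPM in young and 35.5 and 22.8 in old (log2 change 2.87, SE 0.47, adjusted p = 7.89e-03, edgeR). Of its 38 UMIs in old 1, 35 lay in 1 spot, and of 22 in old 2, 12 lay in 1 spot. Without old 1 the call was lost (log2 change 2.51, adjusted p = 0.224).

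Vip, the peptide of a class of cortical interneurons that also lies in the suprachiasmatic nucleus, was the only layer 1 interneuron gene called. It stood at 26.8 and 24.5 CPM in young, 24.2 and 20.8 in middle and 84.9 and 59.2 in old member sums. Both old sections lay above the other 4, with a log2 change of 1.46 against young (SE 0.23, adjusted p = 5.24e-03, edgeR). In other spots Vip stood at 38.2 to 40.5 CPM in the young and old sections. In each old section 1 spot held much of it, 34 of 91 UMIs in old 1 and 22 of 57 in old 2, against 6 of 45 and 3 of 28 in young. With the highest spot of each gene left out of each section the call was lost (log2 change 0.98, adjusted p = 0.361), as it was without old 1 (1.16, adjusted p = 0.202). In all it was lost in 8 of 24 alternatives, with DESeq2 (1.47), 30 members (1.24), 120 members (0.37), no meninges spots dropped (0.48) and the scores from Ndnf and Myoc (1.13) and from Reln and Ndnf (0.0839) among them.

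Of the 16 layer 1 interneuron genes tested, the score genes Reln and Ndnf among them, 11 were positive and 1 was called, with a median of 0.19. Lamp5 stood at 145 and 167 CPM in young and 164 and 149.5 in old, a log2 change of -0.02 that changed sign in 8 alternatives. Npy, a peptide of neurogliaform cells, spread from 144 to 294 CPM within the young sections, wider than the 2 old values of 251 and 199. Cxcl14, a chemokine of superficial interneurons, stood at 118 and 243 CPM in young and 260 and 238 in old. Gad1 stood at 240.3 and 294 CPM in young and 359 and 295 in old and did not pass the test (log2 change 0.26, SE 0.14, adjusted p = 0.999, edgeR).

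None of the 15 reelin pathway genes, the score gene Reln among them, was called in old against young. There were 6 positive and 9 negative, with a median of -0.10. Vldlr, a reelin receptor, stood at 37.0 and 29.7 CPM in young and 27.1 and 28.0 in old. Lrp8, the other receptor, stood at 44.1 and 32.3 CPM against 34.5 and 24.9. Dab1, the adaptor that reelin signalling phosphorylates, stood at 59.6 and 60.3 CPM against 67.2 and 45.7. For Lrp8 and Dab1 the ages overlapped.

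Among astrocyte and complement genes none was called, and the sections of one age differed widely. C4b (chr17:34728380-34743882, minus), a complement factor with the near copy C4a, stood at 92.4 and 78.6 CPM in young, 61.2 and 106 in middle and 96.1 and 200.3 in old. Its log2 change was 0.74 (SE 0.43, adjusted p = 0.999, edgeR), against 2.26 in other spots. Gfap had a log2 change of -0.04 (SE 0.74), which turned positive in 8 alternatives, and Aqp4 one of -0.28 (SE 0.18). In 1 alternative each, Gfap was called lower (slide as a block, -0.90, adjusted p = 5.61e-03) and C4b higher (score from Myoc, 1.05, adjusted p = 1.67e-03). Serpina3n, an acute phase protease inhibitor of reactive astrocytes, stood at 45.3 and 14.9 CPM in young and 28.9 and 49.8 in old, which overlapped. Apoe, the main lipoprotein of astrocytes, stood at 3460 and 3737 CPM in young and 3525 and 4475 in old. Of the 14 glia limitans genes, the score gene Myoc among them, 5 were positive and 9 negative, with a median of -0.11. Old 2, whose members also had the highest meningeal score, was highest of the 6 sections for Gfap, Vim, C4b and Serpina3n.

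Microglial genes leaned upward without a call. All 11 were positive with a median of 0.36, against 0.18 in other spots, and 8 lay higher in both old than in both young sections, against 17.5% of all genes tested. Cx3cr1, the fractalkine receptor, stood at 14.9 and 26.2 CPM in young, 34.0 and 36.8 in middle and 35.5 and 35.3 in old (log2 change 0.81, SE 0.29, adjusted p = 0.916, edgeR). P2ry12, a receptor of resting microglia, stood at 31.0 and 35.8 CPM in young and 42.9 and 44.6 in old. Of 11 interferon response genes 9 were positive and 1 called, with a median of 0.67. Ifi27l2a rose from 11.9 and 8.73 CPM in young to 35.5 and 35.3 in old (log2 change 1.71, SE 0.31, adjusted p = 0.0190, edgeR), with 22 of the 38 UMIs of old 1 in 1 spot. Bst2, tetherin, stood at 15.5 and 16.6 CPM against 41.1 and 29.1 and did not pass (adjusted p = 0.378, edgeR). The Ifi27l2a call was lost in 12 of 23 alternatives, among them the removal of each gene's highest spot (log2 change 1.34) and of either young or either old section (adjusted p at most 0.154), and a slide block (1.69, adjusted p = 0.0935).

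AC149090.1, a gene on an unplaced scaffold that GENCODE M21 lists as protein-coding, rose in member and other spots alike. It stood at 108 and 126 CPM in young, 280.2 and 225 in middle and 264 and 222 in old member sums (log2 change 1.03, SE 0.16, adjusted p = 4.14e-03, edgeR). In other spots the change was 0.94. The call was lost without young 1 (0.89, adjusted p = 0.0512) and without old 1 (0.90, adjusted p = 0.112). Pomc, the opiomelanocortin precursor of the arcuate nucleus and pituitary, fell from 21.5 and 33.2 CPM to 2.80 and 3.11 (log2 change -3.16, SE 0.49, adjusted p = 4.81e-03, edgeR). It is not a cortical marker, and its call was lost among spots with more Slc17a7 than Slc17a6 (log2 change -2.59) and without old 1 (-3.09, adjusted p = 0.112). The hypothalamus list had a median of -0.49 in member spots, and the ependymal list one of -1.51. Hypothalamus genes summed to 1395 CPM in middle 1 and 1035 in young 1 against 272 to 425 in the other member sums, and ependymal genes to 227 CPM in young 1 against 40.2 to 77.5.

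**Figure D3:**
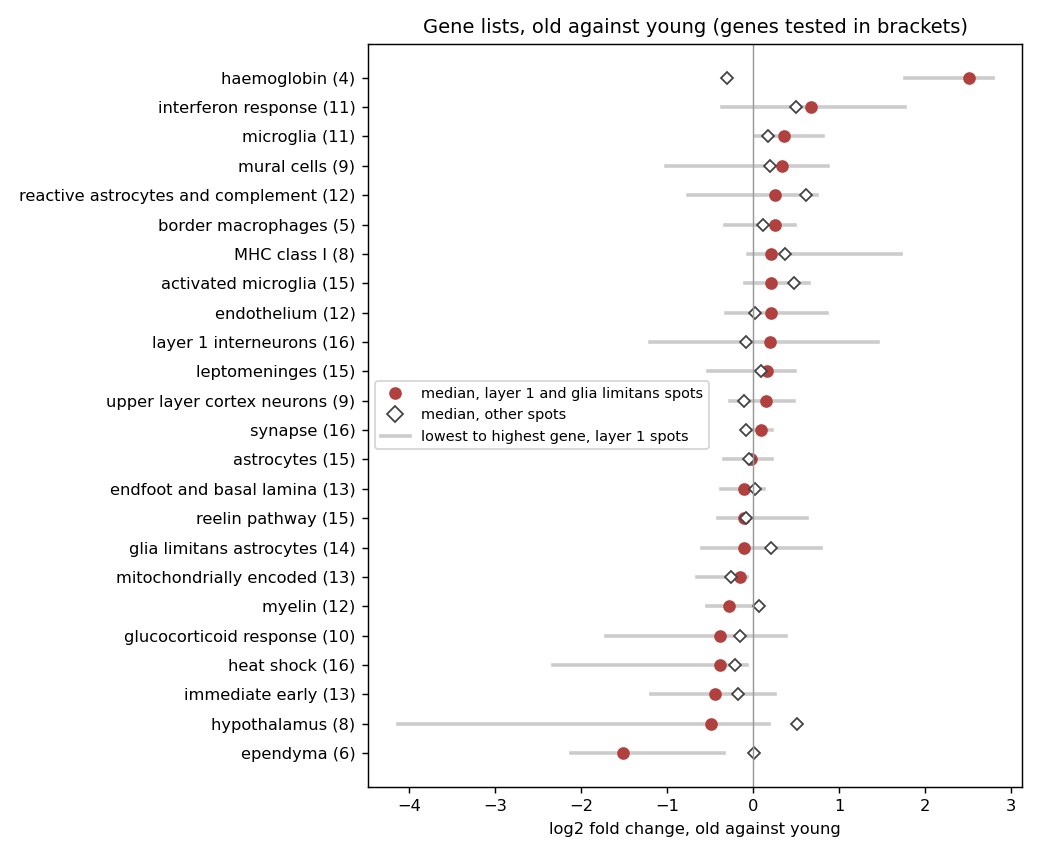
Median log2 fold change, old against young, of 24 gene lists in member spots (red circles) and other spots (open diamonds), with grey bars from the lowest to the highest gene of each list in member spots and the number of genes tested in brackets. Haemoglobin genes stand at 2.51 in member spots and -0.30 in other spots, and heat shock genes at -0.38 and -0.21. The lists include the genes that chose or dropped spots.

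Middle against young shares its control sections with the comparison above. It called 10 genes, 0.0923% of those tested, 3 higher (0.0277%) and 7 lower (0.0646%), with 494 genes at an unadjusted p under 0.05. Hspa1b fell by 2.89 on the log2 scale (SE 0.25, adjusted p = 2.52e-06, edgeR) and Hspa1a by 2.47 (SE 0.23, adjusted p = 8.02e-06, edgeR). Dnajb1, the Hsp40 partner of Hsp70, stood at 144 and 111 CPM in young, 63.4 and 37.6 in middle and 75.6 and 47.8 in old. It was called in middle (log2 change -1.36, SE 0.23, adjusted p = 0.0294) and not in old (-1.08, SE 0.23, adjusted p = 0.146, edgeR). Hspb1, the small heat shock protein of surface astrocytes and vessels, stood at 79.9 and 67.2 CPM in young, 24.2 and 38.4 in middle and 38.3 and 51.9 in old.

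Hspb1 was likewise called in middle (-1.27, SE 0.23, adjusted p = 0.0294) and not in old (-0.75, SE 0.22, adjusted p = 0.564, edgeR). Old against middle was not past the threshold for either gene. Of the heat shock list 15 of 16 genes were negative and 4 called, with a median of -0.17. Sgk1 (-1.50, SE 0.24), Nfkbia (-1.46, SE 0.24) and Cebpd (-1.53, SE 0.29) fell as well, with adjusted p of 0.0294, 0.0152 and 0.0352 in edgeR's test. AC149090.1 rose by 1.09 (SE 0.16), Hba-a2 by 1.85 (SE 0.31) and Hbb-bs by 1.72 (SE 0.29). Without middle 1 the calls for Hba-a2, Hbb-bs, AC149090.1, Hspb1, Nfkbia, Cebpd and Sgk1 were lost (adjusted p from 0.0534 to 0.772), and without middle 2 those for Dnajb1, Nfkbia and Sgk1 (0.122 to 0.382). Without young 1 those for Hba-a2, Dnajb1, Hspb1, Nfkbia and Cebpd were lost (0.160 to 0.430), without young 2 that for Hbb-bs (0.0587), and without old 1 or old 2 that for Sgk1 (0.0879 and 0.0947). With slide as a block those for Sgk1, Nfkbia and Hbb-bs were lost (0.240, 0.0701 and 0.0866). Leptomeningeal genes, among them genes that had been used to drop spots, leaned down, 14 of 15 negative with a median of -0.39 and none called.

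Old against middle called 2 genes, 0.0185% of those tested and 0.00923% in each direction, with 507 at an unadjusted p under 0.05. Vip rose by 1.67 on the log2 scale (SE 0.24, adjusted p = 0.0107, edgeR), under the same limit of single spots as above. Hap1, huntingtin-associated protein, which hypothalamic neurons express strongly, fell from 146 and 153 CPM to 75.6 and 69.5 (log2 change -1.04, SE 0.17, adjusted p = 0.0336, edgeR). Its young values of 111 and 83.8 lay between. The Hap1 call was lost among spots with more Slc17a7 than Slc17a6 (log2 change -0.59), and without any 1 of the middle or old sections (adjusted p at most 0.193). Vip was lost without either middle section or old 1 (adjusted p at most 0.15). Hspa1a, Hspa1b, Sgk1, Nfkbia, Cebpd, Hbb-bs, Hba-a2 and AC149090.1 were called in both comparisons with young, which share the young sections.

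A linear trend over the 6, 18 and 21 months called 18 genes, 0.166% of those tested, 5 rising (0.0462%) and 13 falling (0.12%) (468 at an unadjusted p under 0.05). Beside genes named above it called Klf4, Icam1, Nr4a2, Ifrd1, Tprkb and Mat2a as falling and Tac2 as rising. Klf4, a transcription factor of endothelium and fibroblasts, stood at 38.8 and 37.6 CPM in young, 15.1 and 18.4 in middle and 14.9 and 17.6 in old. Its slope was -0.09 per month on the log2 scale (SE 0.02, adjusted p = 0.0101, edgeR), and in other spots all 6 values lay between 7.87 and 10.4 CPM. Icam1, an adhesion molecule that NF-kB induces, stood at 26.2 and 29.7 CPM in young, 4.53 and 7.99 in middle and 1.87 and 11.4 in old (slope -0.16, SE 0.03, adjusted p = 5.10e-03, edgeR). Tac2, a tachykinin precursor, stood at 14.3 and 10.5 CPM in young, 49.1 and 72.0 in middle and 89.6 and 41.5 in old. Of its UMIs, 50 of 90 in middle 2 and 54 of 96 in old 1 came from 1 spot. Without young 1 the trend was lost for Klf4, Tac2, Tprkb, Nr4a2, Ifrd1, Mat2a, Cebpd and Nfkbia (adjusted p from 0.122 to 0.842). It was lost without young 2 for Errfi1, Ifrd1 and Tac2 (0.0564 to 0.249), without old 1 for Hbb-bs, Ifrd1, Mat2a, Nr4a2 and Tac2 (0.0642 to 0.139), without middle 1 for Tac2 (0.188) and without middle 2 for Ifrd1 and Mat2a (0.119 and 0.127). With slide as a block it was lost for Sgk1, Nfkbia, Klf4, Nr4a2, Hbb-bs, Pomc, Tac2, Tprkb, Ifrd1 and Mat2a (0.0515 to 0.214).

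The last comparison asked whether the old against young change differed between member and other spots, by an interaction term with the section as a block over 17113 genes. It called 39 genes, 0.228% of those tested, of which 16 had the more positive change in member spots (0.0935%) and 23 the more negative one (0.134%), and 893 had an unadjusted p under 0.05. The filter on low counts took both kinds of sum together here, whereas 10834 genes passed it on member sums alone. The differences below are log2 changes in member spots minus those in other spots. The count fell to 1 when at least 10 counts in every sum were required and to 6 with DESeq2, and ran from 12 (without young 1) to 77 (without young 2) with 1 section left out; it was 14 without old 1.

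The 4 haemoglobin genes had the more positive change in member spots, with differences of 3.30 for Hbb-bs (SE 0.26, adjusted p = 1.57e-23), 2.79 for Hba-a1 (SE 0.36, adjusted p = 3.34e-11) and 2.65 for Hba-a2 (SE 0.33, adjusted p = 9.26e-12, edgeR). In other spots Hbb-bs stood at 30.5 and 15.5 CPM in young and 23.5 and 13.1 in old. Set against layer 2/3 spots in place of all other spots, Hbb-bs and Hba-a1 were not called (differences of 2.497 and 1.81, adjusted p = 0.487 and 0.191). They were also lost after thinning, with the score from Reln and Ndnf and, as was Hba-a2, with no meninges spots dropped (2.88, 2.54 and 1.71), and Hbb-bs and Hba-a2 when 10 counts in every sum were required. Vip differed by 1.54 (SE 0.23, adjusted p = 5.66e-08) and Tac2 by 1.52 (SE 0.27, adjusted p = 5.70e-05, edgeR). The Tac2 difference changed sign with 120 members (-0.10) and with the score from Ndnf and Myoc (-0.12). In member spots 1 spot held 34 of 91 Vip UMIs in old 1 and 22 of 57 in old 2. For Tac2 it held 54 of 96 in old 1 and 11 of 40 in old 2. Cd34 and Gucy1a1, genes of endothelium and of the soluble guanylate cyclase in mural cells and neurons, differed by 1.03 (SE 0.24) and 0.98 (SE 0.23). Cd34 stood at 23.3 and 30.6 CPM in young and 55.1 and 50.9 in old member sums, against 33.6 to 36.7 CPM in the other spots of all of these sections. The Cd34 call was lost in 13 of 23 alternatives, among them layer 2/3 spots (0.94, adjusted p = 0.115) and the removal of young 1, old 1 or old 2 (adjusted p = 0.908, 0.335 and 0.0867). That for Gucy1a1 was lost in 12 of 23, among them layer 2/3 spots (0.83), the score from Reln and Ndnf (0.0477) and the removal of young 1 or old 1.

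C4b, Lyz2 and some genes of reactive astrocytes had the more negative change. Of the 11 microglia genes 8 had a positive difference, and so had 8 of the 15 astrocyte genes, with none called in either list. C4b rose in other spots from 20.8 and 15.0 CPM in young to 75.9 and 102 in old, while member spots began at 92.4 and 78.6 and ended at 96.1 and 200.3. The difference was -1.53 (SE 0.17, adjusted p = 1.69e-14, edgeR). Lyz2, lysozyme of phagocytes, stood at 50.1 and 37.6 CPM in young and 49.5 and 85.1 in old member sums, against 9.95 and 8.23 and then 24.5 and 40.6 in other spots. Its difference was -1.21 (SE 0.23, adjusted p = 2.85e-04, edgeR). In both young sections C4b and Lyz2 stood higher in member spots than in other spots. The Lyz2 call was lost without young 1 (difference -1.20, adjusted p = 0.117).

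Vim differed by -0.79 (SE 0.16, adjusted p = 2.94e-03), Serpina3n by -1.09 (SE 0.26, adjusted p = 0.0187) and Neat1, a nuclear long noncoding RNA, by -0.69 (SE 0.16, adjusted p = 0.0140, edgeR). These 3 were named after their values were seen. Of the 18 reactive astrocyte and complement genes, 16 had a more negative change in member spots, with a median of -0.47 against -0.01 for all genes. The 4 called were Vim, Serpina3n, C4b and C3. Only 12 of the 18 passed the filter on low counts on member sums alone, and the differences of the 18 ran from -4.55 to 8.74. C3 had 70 UMIs in young 1 and 1 to 7 in the other 5 sections, and its call was lost without young 1 (adjusted p = 1). Vim was lost without young 1 or old 1, Neat1 without young 2 or old 1 and Serpina3n without young 1, old 1 or old 2 (adjusted p at most 1). Set against layer 2/3 spots in place of all other spots, the C4b difference was -0.51 (adjusted p = 0.97), and Lyz2 and Serpina3n changed sign. The C4b call was also lost with the score from Reln and Ndnf and when 10 counts in every sum were required.

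Cebpd (-1.91, SE 0.34, adjusted p = 3.06e-05) and Nr4a2 (-1.13, SE 0.25, adjusted p = 5.74e-03, edgeR) had the more negative change in member spots. Both were lost without young 1 (adjusted p = 0.185 and 0.451), and Nr4a2 without old 1 (0.936). Against layer 2/3 spots the Cebpd difference was -0.87 (adjusted p = 0.959), and with the score from Reln and Ndnf it was -0.93 and that of Nr4a2 -0.35, none of them called. Both were also lost with DESeq2 and after thinning, and Nr4a2 in 11 of 23 alternatives in all. Hspa1a and Hspa1b, which fell in both kinds of spot, did not pass, with differences of -0.51 (SE 0.26, adjusted p = 0.951) and -0.54 (SE 0.29, adjusted p = 0.966, edgeR). Slc17a6, Ntng1, Tanc1 and Nkx6-2 had differences of -1.64, -1.20, -1.28 and -1.15, each lost without young 1 and without old 1. Slc17a6 stood at 82.3 and 41.0 CPM in young, 77.8 and 51.2 in middle and 20.5 and 22.8 in old member sums. Among spots with more Slc17a7 than Slc17a6, which cannot test Slc17a6 itself, Tanc1 (-1.54, adjusted p = 3.83e-03) and Nkx6-2 (-1.42, adjusted p = 0.0219) were called and Ntng1 was not (-1.14, adjusted p = 0.0813).

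**Figure D4:**
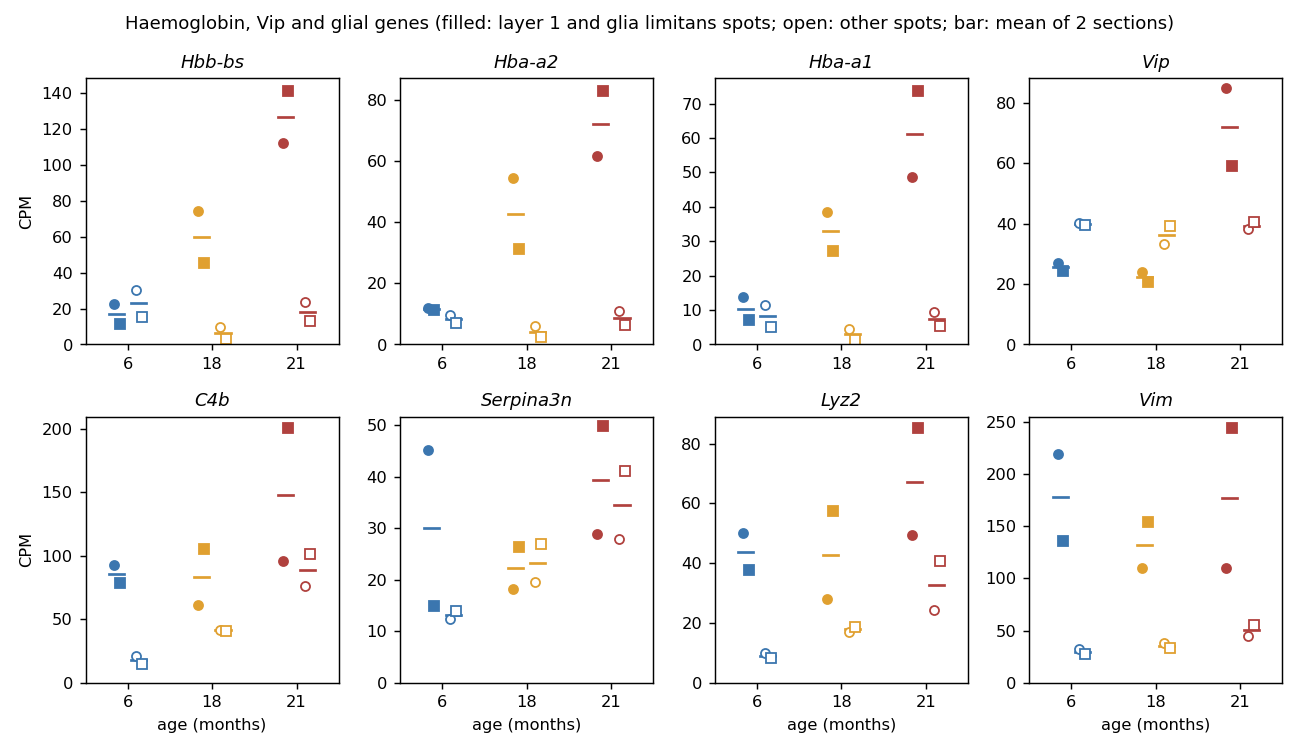
CPM of 3 haemoglobin genes, Vip and 4 glial genes by age in months, in member spots (filled) and other spots (open) of each section (circle for section 1, square for section 2, bar for the mean of 2 sections). The 3 haemoglobin genes lie highest in old member spots and between young and old in middle ones, Vip is high in old member spots, and C4b rises in other spots from 20.8 and 15.0 CPM in young to 75.9 and 102 in old.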

How the data were processed

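Each section was deposited as a matrix of UMI counts, not normalized. Per the file headers the counts come from Space Ranger 1.3.1; the submitters' processing notes name Space Ranger 3.1 and the mm10 build. The spot barcodes and gene identifiers with symbols deposited beside them hold other content than measurements. Spot coordinates and images were not used here. Members were chosen as described, with symbols from the files, and the members and gene lists were chosen with earlier results of these data known. Of 369 list genes, 2 (Clec7a and Ctgf) were not matched and are not analysed here. GENCODE M21 (GRCm38) gave positions for 32235 of the 32285 identifiers; promoters came from RefSeq (GRCm38.p6).

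UMIs were summed over the member spots and over the other spots of each section. CPM is a gene's UMIs with that sum scaled to 1000000. Sums were fitted with the robust quasi-likelihood test of edgeR 4.0.16 in R 4.3.3, after filterByExpr and with TMM factors, on all 6 sections. The term was age group, which left 3 residual degrees of freedom, or for the trend age in months, which left more. The difference between member and other spots was an interaction with section as a block. Genes were called at a two-sided Benjamini-Hochberg adjusted p under 0.05. P-values rest on the spread between 2 sections per age, and in the trend also on the departure of the ages from a line. The quasi-likelihood fit also draws each gene's spread toward that of other genes, so p-values do not measure the spread between animals alone. In the interaction the same spread served the small member sums and the far larger sums of other spots. There Hbb-bs had an adjusted p of 1.57e-23 in edgeR's test, but of 0.487 against layer 2/3 spots. Chi-square per degree of freedom between replicates was 2.98 to 3.98, so no 2 sections were the same library.

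Genes named in the text are, in each comparison and direction, the 8 of largest absolute log2 change among called genes with a mean of at least 20 CPM and no overlap, with Reln, Ndnf, Myoc, Gfap, Aqp4, C4b, Serpina3n, Lamp5, Hspa1a, Nfkbia and Apoe and members of lists always given, and 15 for level. S100a8, Pomc, Icam1, Tprkb, Mat2a and Ifrd1 were named after their values were seen. Layer 2/3 spots were the 150 highest of the rest per section for Cux2, Rasgrf2 and Stard8. The fits were tested on simulated data. There 200 genes with a mean of at least 20 expected UMIs had a log2 change of 1. Of these, 67.4% were recovered in old against young (10834 genes), 72.4% in middle against young and 69.2% in old against middle. In the trend 82.1% were recovered, from an equal step in middle and old, and in the interaction 65.1% (17113 genes). Of the calls, 2.25% to 6.16% were false. Noise followed the fitted trend of spread with level, so spread particular to a gene or to single spots was not simulated. Alternatives were 24 planned settings and 2 added after the data were seen (spots with more Slc17a7 than Slc17a6, and each gene's highest spot left out), DESeq2 1.42.0 among them. Doublet calling does not apply to spots.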

Additional observations from a re-analysis of the deposited data

Results flagged for a closer look

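For 16 genes the old against young change differed between member and other spots by the interaction test, each called after adjustment with edgeR. The values are differences of log2 changes, member minus other spots. More positive in member spots were the haemoglobin genes Hbb-bs (3.30), Hba-a1 (2.79) and Hba-a2 (2.65), the peptide genes Vip (1.54) and Tac2 (1.52), Gng8 (2.21), a G protein gamma subunit of the habenula, and the vascular genes Cd34 (1.03) and Gucy1a1 (0.98). Gng8 had 43 of its 66 UMIs of middle 1, 23 of 44 of old 1 and 12 of 16 of old 2 in 1 spot. The Gng8 difference was lost with each gene's highest spot left out. That of Tac2 changed sign with 120 members and with the score from Ndnf and Myoc.

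More negative in member spots were the transcription factor genes Cebpd (-1.91), Nr4a2 (-1.13) and Nkx6-2 (-1.15), the glial and phagocyte genes C4b (-1.53) and Lyz2 (-1.21), and the neuronal genes Slc17a6 (-1.64), Tanc1 (-1.28) and Ntng1 (-1.20). Ntng1, a netrin-related gene of thalamic axons and some cortical cells, stood at 42.9 and 35.8 CPM in young and 19.6 and 15.6 in old member sums, against 56.5 and 88.9 and then 74.2 and 68.1 in other spots. Nkx6-2, a transcription factor of oligodendrocytes, stood at 37.0 and 26.2 CPM in young and 11.2 and 32.2 in old member sums. Tanc1, a postsynaptic scaffold, stood at 34.6 and 29.7 CPM against 13.1 and 16.6.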

How the results depend on the processing

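Counts of called genes moved with the settings. Without a filter on low counts they were 45 (old against young), 56 (middle against young), 20 (old against middle) and 65 (trend). A score from Reln and Ndnf gave 3, 3, 0 and 2 and 10 for the difference between member and other spots; a score from Myoc gave 33, 24, 4, 33 and 60. Among spots with more Slc17a7 than Slc17a6 the counts were 19 (middle against young), 1 (old against middle) and 28 (trend). For middle against young, a score from Ndnf and Myoc gave 22 and dropping no meninges spots 16. Old against middle gave 0 with DESeq2, 0 with 120 members, 0 with each gene's highest spot left out, 1 with 30 members and 6 after thinning. At an unadjusted p under 0.05 these zero counts stood beside 79, 607, 465 and, with Reln and Ndnf, 524 genes. The trend gave 10 with slide as a block and 10 with 30 members. The difference gave 6 with DESeq2, 1 with at least 10 counts in every sum, 4 after thinning, 11 with 30 members and 14 against layer 2/3 spots. Genes at 2 times other spots numbered 15 with 120 members, 80 with no meninges spots dropped, 14 with 70 dropped, 4 with Reln and Ndnf, 69 with Myoc, 49 with Ndnf and Myoc and 116 against layer 2/3 spots.

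With 1 section left out the counts ran from 8 to 32 (old against young), 4 to 25 (middle against young), 0 to 6 (old against middle), 15 to 48 (trend), 12 to 77 (difference) and 24 to 34 (level), and the old to young ratio of median UMIs from 0.623 to 0.849 around 0.719 (0.721 for means). The replicate block gave 17 calls in old against young, 8 in middle against young, 1 in old against middle and 19 in the trend. Same-numbered sections correlated at 0.07, 0.04 and 0.10 in their deviations, so the numbers were not taken as pairs.

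Signs turned in 30 of 1867 alternative values of named genes, with the cause not tested. In old against young Gfap became 0.0917 (30 members), 0.255 (120), 0.00613 (no meninges spots dropped), 0.134 (70 dropped), 0.0165 (Ndnf and Myoc) and 0.541 (Reln and Ndnf), and ran from -1.005 to 0.54 with 1 section left out. Lamp5 became 0.173 (30 members), 0.271 (70 dropped), 0.0106 (highest spot left out), 0.143 (Ndnf and Myoc), 0.0668 (slide block) and 0.0023 (thinned), and ran from -0.149 to 0.113 with 1 section left out. Serpina3n became -0.119 (slide block) and -0.0809 (more Slc17a7 than Slc17a6) and ran from -0.221 to 1.32 with 1 section left out. Apoe became -0.0711 (slide block) and ran from -0.0580 to 0.275. Hap1 in old against middle became 0.20 (Myoc score). Among the differences, C3 became 2.23 (Reln and Ndnf) and 0.44 (layer 2/3), Lyz2 0.28 and Serpina3n 0.31 (both layer 2/3), and Tac2 -0.10 (120 members) and -0.12 (Ndnf and Myoc). The Serpina3n difference ran from -1.62 to 0.0354 with 1 section left out.

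With 2 sections per age and at most 1676912 UMIs per sum, genes under about 20 CPM rest on few UMIs. Slide and age cannot be fully told apart, and member spots held 2.02% to 2.33% of a section's spots whatever the extent of the pial surface in it.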

Other observations

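Several lists not described above had no gene called in old against young in member spots, where 0.129% of all genes tested were called. None of the 12 myelin genes was called in old against young, with 10 negative and a median of -0.28, against 0.07 in other spots. All 12 had a more negative change in member than in other spots (median -0.33), again with none called. Summed myelin levels stood at 0.853 and 1.12 times other spots in young, 0.737 and 0.949 in middle and 0.521 and 1.03 in old sections. Section 1 of each age lay below section 2.

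Of the 16 synaptic genes 12 were positive in old against young, with a median of 0.09 and none called, and 15 had a more positive change in member than in other spots. The 13 endfoot and basal lamina genes tested, which include laminins, collagen IV and the dystroglycan complex that holds Aqp4 at the pial surface, had a median of -0.10 and none called. Of 8 MHC class I genes tested 7 were positive, with a median of 0.21 and none called. H2-D1 stood at 78.1 and 83.0 CPM in young and 72.8 and 125 in old. All 13 mitochondrially encoded genes were negative, with a median of -0.15 in member and -0.26 in other spots and none called. Ttr, the transthyretin of the choroid plexus, had 1468 of its 2350 UMIs of old 1 and 855 of 1489 of old 2 in 1 spot, and 1478 of 3695 in middle 2.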
